A study of Mus musculus with 69 samples.

Results

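The genes of the hepatic methionine cycle and its branches were followed in the livers of mice fed a high-fat diet (HFD), by RNA sequencing every 3 h over 24 h. The 9 genes were taken by symbol from the deposited gene tables, which held 55367 gene symbols: Mat1a, Gnmt, Ahcy, Bhmt, Bhmt2, Cbs, Cth, Pemt and Nnmt. All 9 were found and all 9 passed the filter on low counts that left 14398 genes for testing. The mice were of the strain C57/Bl6J and, in every group, of the genotype J1 J2 lf/lf, and the groups were set up to differ in the hepatocyte spliceoforms of the c-Jun N-terminal kinases JNK1 and JNK2 (Mapk8 and Mapk9). The groups were JNK7b, tied in the labels to FLPO (the recombinase Flp), with 23 libraries; JNK7a, tied to CRE (the recombinase Cre), with 22; and control, tied to GFP (green fluorescent protein), with 24. There were 2 to 4 libraries per group at each of the clock hours 2, 5, 8, 11, 14, 17, 20 and 23. The promoter that drove each recombinase, the ages and whether the names give the spliceoform kept or lost were not stated in the labels. Each comparison of groups therefore also differed in the protein delivered, and the effects of protein and spliceoform cannot be told apart.

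In the methionine cycle, methionine is turned into S-adenosylmethionine, the methyl donor of most methyltransferases, which becomes S-adenosylhomocysteine and then homocysteine. Homocysteine is either methylated back to methionine, with betaine or a folate as the donor, or passed through transsulfuration to cysteine and glutathione. The liver holds most of this activity in the body, and mice that lack Mat1a or Gnmt develop fatty liver.

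The labelled tissue was checked against hepatocyte markers. The summed level of the 6 markers of 7 found in the table (Alb, Apoa1, Ttr, Serpina1c, Fgb and Ahsg) ran from 61490 to 153200 CPM (read counts scaled to a common library size) over all libraries. Totals were 26834727 to 48598363 estimated counts per library. Mapk8 averaged 17.7 ± 2.15 CPM in JNK7b, 14.6 ± 3.28 CPM in JNK7a and 17.8 ± 2.29 CPM in control livers (SD, n = 23, 22 and 24). Mapk9 averaged 56.7 ± 7.91 CPM in JNK7b, 41.0 ± 4.56 CPM in JNK7a and 49.9 ± 10.5 CPM in control livers, and 1 control library, replicate 3 of hour 8, stood apart at 14.1 CPM. That library and JNK7b replicate 2 of hour 5, singled out in an earlier analysis of these data, stayed in the fits unless stated. JNK7b replicate 2 of hour 5 held the lowest Mapk8 (12.7 CPM) and Mapk9 (36.45 CPM) of its group. Its Mapk9 lay within the range of JNK7a livers, 28.9 to 47.3 CPM. The tests of the 9 genes were also run without these 2 libraries, and calls that rest on them are given both ways. Levels, means of single hours and correlations are given only with them.

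Of the 9 genes, 6 had a promoter entry in the RefSeq table of mouse build GRCm38.p6, which gives 250 bases before and 50 after the annotated start. The promoters of Gnmt, Ahcy, Bhmt, Bhmt2 and Cbs are shown, genes that changed between groups or over the day. Pemt also changed over the day in JNK7a and control livers, and its 2 entries were searched but are not shown. Capitals mark matches, on either strand, to 6 motifs searched: the E-box CACGTG, the D-box TTANNTAA, the letters AGGTCA bound by the ROR and REV-ERB receptors, the AP-1 site TGANTCA, the cAMP response element TGACGTCA and the TATA box TATAAA. A match on the other strand reads as its complement in reverse order.
Gnmt (GRCm38.p6, chr17:46729116-46729415, minus strand): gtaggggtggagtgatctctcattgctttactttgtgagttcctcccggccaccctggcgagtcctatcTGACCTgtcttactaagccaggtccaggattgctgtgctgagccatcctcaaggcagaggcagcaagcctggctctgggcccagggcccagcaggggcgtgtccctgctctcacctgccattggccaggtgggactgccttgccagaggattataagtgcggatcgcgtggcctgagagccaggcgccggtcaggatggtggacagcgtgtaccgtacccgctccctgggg
Ahcy (GRCm38.p6, chr2:155074448-155074747, minus strand): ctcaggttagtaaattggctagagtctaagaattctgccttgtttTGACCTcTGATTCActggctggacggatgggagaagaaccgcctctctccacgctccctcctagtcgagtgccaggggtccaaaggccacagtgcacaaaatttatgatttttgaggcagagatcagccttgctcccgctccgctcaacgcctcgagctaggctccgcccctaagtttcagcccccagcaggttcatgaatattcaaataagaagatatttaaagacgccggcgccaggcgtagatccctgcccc
Bhmt (GRCm38.p6, chr13:93637709-93638008, minus strand): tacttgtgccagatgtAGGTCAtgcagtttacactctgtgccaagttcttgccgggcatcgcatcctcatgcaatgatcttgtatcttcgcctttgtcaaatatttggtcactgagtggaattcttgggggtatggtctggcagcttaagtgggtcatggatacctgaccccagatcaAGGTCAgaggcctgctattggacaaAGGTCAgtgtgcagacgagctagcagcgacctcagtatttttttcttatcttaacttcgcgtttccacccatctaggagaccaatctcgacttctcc
Bhmt2 (GRCm38.p6, chr13:93674253-93674552, minus strand): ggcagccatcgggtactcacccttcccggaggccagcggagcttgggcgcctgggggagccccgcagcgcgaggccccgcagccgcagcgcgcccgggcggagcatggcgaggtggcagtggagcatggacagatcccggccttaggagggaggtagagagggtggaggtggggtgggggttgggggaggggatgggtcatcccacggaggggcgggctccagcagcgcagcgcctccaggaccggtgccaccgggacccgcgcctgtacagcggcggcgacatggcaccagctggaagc
Cbs (GRCm38.p6, chr17:31637156-31637455, minus strand): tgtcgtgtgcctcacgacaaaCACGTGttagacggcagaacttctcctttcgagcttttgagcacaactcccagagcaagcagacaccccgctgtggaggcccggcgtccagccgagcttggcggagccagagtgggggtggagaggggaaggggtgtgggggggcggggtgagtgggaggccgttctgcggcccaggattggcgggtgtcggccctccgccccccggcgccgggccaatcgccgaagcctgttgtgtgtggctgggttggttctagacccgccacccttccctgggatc

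The Bhmt promoter held AGGTCA at 3 places, 234, 72 and 47 bases before the RefSeq start. Of all 32851 promoters in the table, 16.3% held this motif at least once and 0.183% held it at least 3 times. The Gnmt promoter held it once, on the other strand, 181 bases before the start, and the Ahcy promoter once, on the other strand, 205 bases before the start, next to an AP-1 match at 198 bases. AP-1 matches, letters bound by the Jun and Fos proteins, were found in 7.81% of all promoters. The Cbs promoter held an E-box, the motif of the clock factors BMAL1 and CLOCK, 229 bases before the start, as did 7.15% of all promoters. No match to the 6 motifs was found in the Bhmt2 window or in either of the 2 Pemt entries. These are matches of letters in a fixed window, and binding was not measured.

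All 9 genes are annotated as protein coding in the GENCODE annotation of GRCm38 (mm10). Gnmt lies at chr17:46725664-46729168 and Cbs at chr17:31608894-31637238, Mat1a at chr14:41105035-41124412, Ahcy at chr2:155059310-155074497, Cth at chr3:157894248-157925077, Pemt at chr11:59970614-60046489 and Nnmt at chr9:48591877-48605153. Bhmt (chr13:93616675-93637961) and Bhmt2 (chr13:93655720-93674302) are related neighbours on the same strand, 17758 bases apart. Any reads that match both would be shared between them by the estimate, and their number was not measured. The GENCODE start of Bhmt, at base 93637961, lies inside the promoter window shown above, upstream of the RefSeq start. By the GENCODE start, the AGGTCA matches 72 and 47 bases before the RefSeq start lie within the gene. Both Pemt promoter windows lie within the Pemt gene. An annotated gene of the opposite strand overlaps Gnmt, Bhmt and Ahcy, and one of the same strand overlaps Cth. Those measured averaged 29.5 (Gm15622 at Bhmt), 12.5 (Gm45609 at Ahcy) and 32.8 (Gm43314 at Cth) estimated counts per library, against averages of 91250 for Bhmt, 56140 for Ahcy and 8965 for Cth.

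Levels between genes were compared in TPM, a scaled transcript number that allows for transcript length. Over the 69 libraries Bhmt averaged 1441 ± 625 TPM, Gnmt 1359 ± 395 TPM, Mat1a 1086 ± 282 TPM and Ahcy 868 ± 207 TPM (SD), which put them at ranks 87, 89, 103 and 126 among the 14398 genes. Pemt followed at 335 ± 31.2 TPM, Cbs at 246 ± 93.8 TPM, Cth at 208 ± 65.5 TPM, Bhmt2 at 93.0 ± 12.5 TPM and Nnmt at 86.0 ± 44.5 TPM. Within this order the steps from Bhmt to Gnmt, Gnmt to Mat1a, Mat1a to Ahcy, Pemt to Cbs, Cbs to Cth and Bhmt2 to Nnmt were smaller than the larger SD of the pair, while those from Ahcy to Pemt and from Cth to Bhmt2 were larger. The genes also differed in how much they varied between libraries of a group. The coefficient of variation of Pemt was 7.16% in JNK7b, 12.6% in JNK7a and 11.1% in control livers, that of Bhmt was 45.0% in JNK7b, 49.0% in JNK7a and 30.8% in control livers, and that of Nnmt was 60.9% in JNK7b, 27.2% in JNK7a and 49.1% in control livers. The lowest count of any of the 9 genes in any library was 349, for Nnmt, so the spread between libraries limits these values more than counting does.

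**Figure D1:**
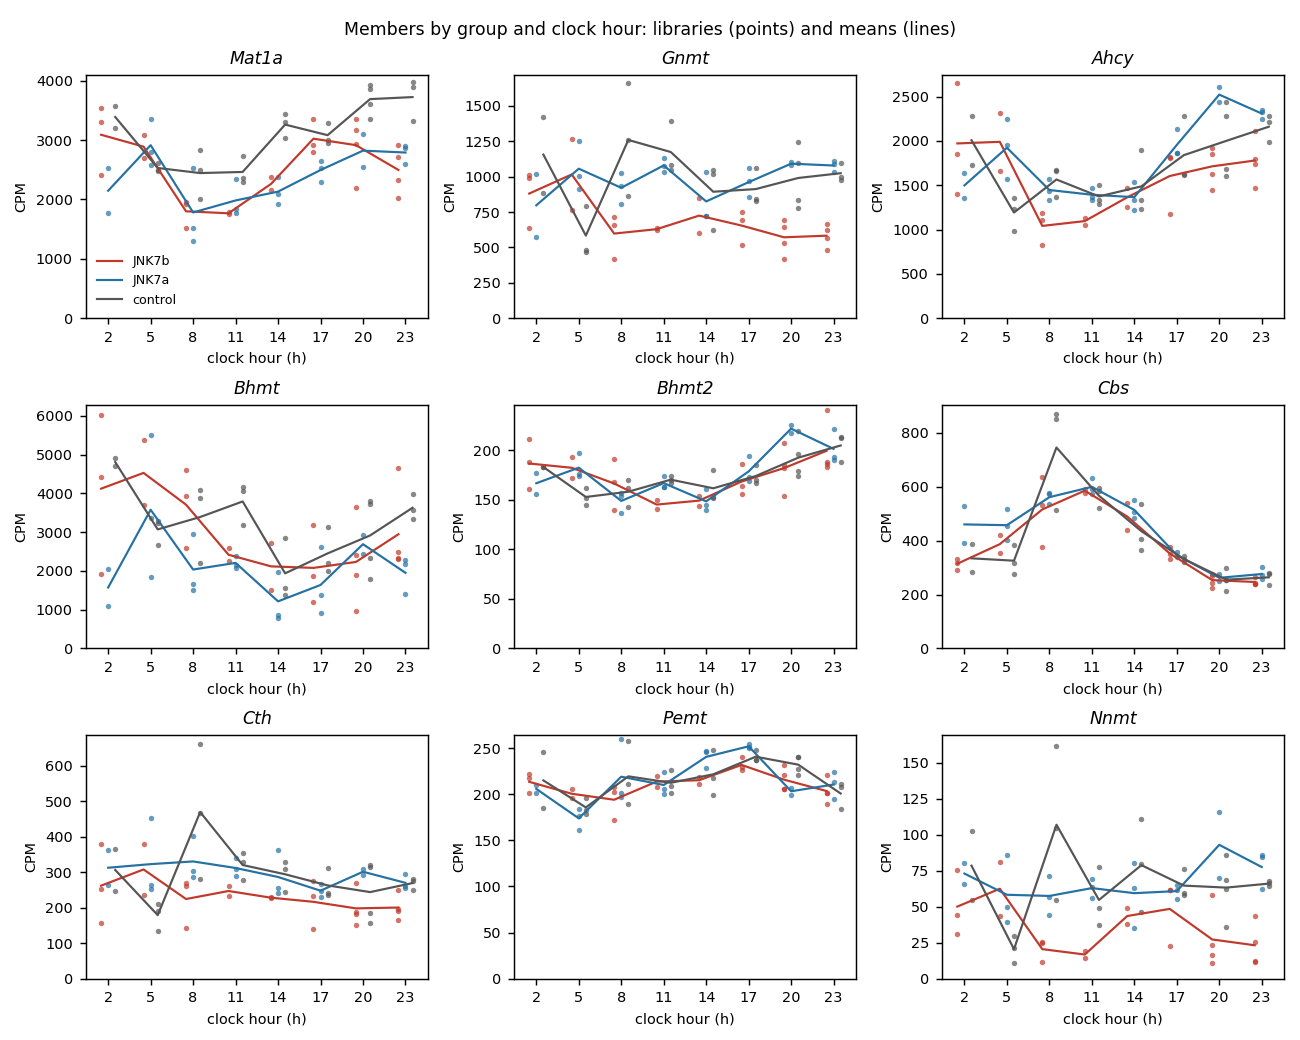
Each panel shows 1 gene, with CPM on the vertical axis and the clock hour on the horizontal axis. Points are libraries and lines join the mean of each hour for JNK7b (red), JNK7a (blue) and control (grey). The JNK7b line of Gnmt and Nnmt runs below the others from hour 8 to hour 23, both the JNK7b and the JNK7a line of Mat1a run below the control line at every hour but 5, and the 3 lines of Bhmt2 and Pemt run close together.

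Group comparisons asked how each gene differed between 2 groups on the mean of the 8 clock hours, and a gene is said to have risen or fallen where edgeR's quasi-likelihood test gave a Benjamini-Hochberg adjusted p below 0.05 over all 14398 genes. The labels do not say that the libraries come from separate animals, so the p-values measure the spread between these libraries, which may be technical. In bulk tissue, fewer cells of a type and less RNA per cell cannot be told apart. The comparisons of JNK7b and JNK7a with control share the control libraries. Against control, 3 of the 9 genes fell in JNK7b livers (Gnmt, Mat1a and Nnmt) and none rose, where 13.4% of all genes were called, 6.59% higher and 6.85% lower. Against control, 2 of the 9 fell in JNK7a livers (Mat1a and Bhmt) and none rose, where 20.7% of all genes were called, 9.66% higher and 11.1% lower, so that this count is near the background. In JNK7b against JNK7a livers 5 fell (Gnmt, Ahcy, Cbs, Cth and Nnmt) and 1 rose (Bhmt), where 22.3% of all genes were called, 10.9% higher and 11.4% lower. Ahcy and Cbs both lost their calls, leaving 3, without any 1 of 7 libraries: JNK7a replicate 2 of hours 2 and 14, and JNK7b replicate 3 of hour 2, replicate 1 of hour 5, replicate 3 of hour 8, replicate 2 of hour 11 and replicate 1 of hour 17. The median log2 fold change of the 9 genes was -0.13 in JNK7b against control, 0.01 in JNK7a against control and -0.15 in JNK7b against JNK7a. Over all genes tested the median lay within 0.01 of 0 in each. Over all genes 1391 were called higher and 1593 lower in JNK7a against control, but 703 and 2410 with limma on log2(TPM + 1). The same counts for JNK7b against JNK7a were 1569 higher and 1638 lower, but 2071 and 708 with limma on log2(TPM + 1).

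**Figure D2:**
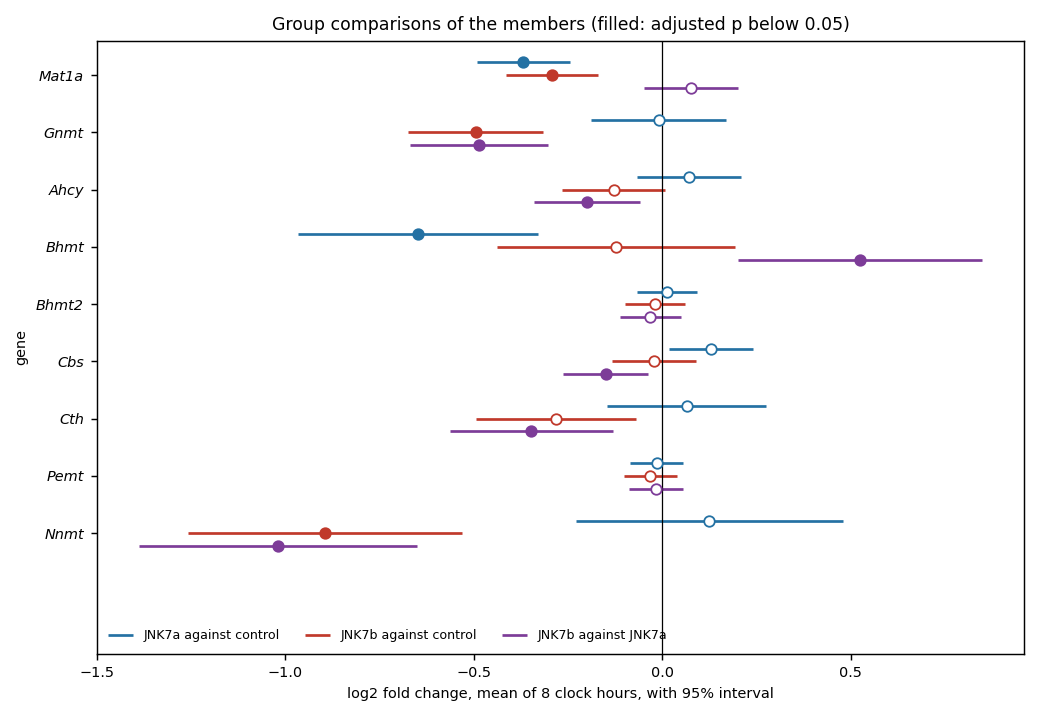
Log2 fold change of each gene on the mean of 8 clock hours (horizontal axis), with its 95% interval as a line, for JNK7a against control (blue), JNK7b against control (red) and JNK7b against JNK7a (purple). Filled points have an adjusted p below 0.05. Nnmt in JNK7b livers lies farthest from 0, at -0.89 against control and -1.02 against JNK7a, and the points of Bhmt2 and Pemt lie within 0.05 of 0.

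Mat1a encodes the liver's methionine adenosyltransferase, which makes S-adenosylmethionine. Its level had a lowest, median and highest value of 1520, 2701 and 3545 CPM in JNK7b livers, 1299, 2525 and 3357 CPM in JNK7a livers and 2012, 3120 and 3970 CPM in control livers. The ranges overlapped over the day as a whole. Hour by hour, all JNK7b libraries lay below all control libraries at 5 of 8 hours (8, 11, 14, 20 and 23). At hour 5 all JNK7b libraries lay above all control libraries. All JNK7a libraries lay below all control libraries at 5 of 8 hours (2, 14, 17, 20 and 23). The share of all genes that separate in this way was not counted. With 2 to 4 libraries per group and hour some genes separate by chance, so such hours are only described, here and below. Mat1a fell by 0.29 ± 0.06 on the log2 scale (SE; adjusted p = 0.000441) in JNK7b against control, 0.82 times the control level, with lower means at 7 of 8 hours. It fell by 0.37 ± 0.06 (SE; adjusted p = 5.6e-06) in JNK7a against control, 0.77 times the control level, again with lower means at 7 of 8 hours. JNK7b and JNK7a livers differed by 0.08 ± 0.06 (SE; adjusted p = 0.43), with a 95% interval from -0.05 to 0.20. Mat1a was thus lower than in control livers in both groups, and a difference between them beyond that interval was not seen.

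Gnmt encodes glycine N-methyltransferase, an abundant liver enzyme that uses up S-adenosylmethionine by methylating glycine to sarcosine. Its lowest, median and highest levels were 416, 643 and 1268 CPM in JNK7b livers, 573, 1029 and 1251 CPM in JNK7a livers and 471, 1008 and 1660 CPM in control livers. All JNK7b libraries lay below all control libraries, and below all JNK7a libraries, at the same 5 hours (8, 11, 17, 20 and 23). Gnmt fell by 0.49 ± 0.09 (SE; adjusted p = 5.53e-05) in JNK7b against control and by 0.49 ± 0.09 (SE; adjusted p = 4.98e-05) in JNK7b against JNK7a, 0.71 times the level of either. Gnmt in JNK7a against control had a log2 fold change of -0.01 ± 0.09 (SE; adjusted p = 0.963), with a 95% interval from -0.19 to 0.17. At hour 20, where JNK7b stood apart from the other groups, the JNK7b mean was 572 ± 121 CPM (SD, n = 4), the JNK7a mean 1092 ± 12.8 CPM (n = 2) and the control mean 991 ± 221 CPM (n = 4).

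Ahcy encodes S-adenosylhomocysteine hydrolase, which splits the product of the methyl transfer into adenosine and homocysteine. Its lowest, median and highest levels were 822, 1630 and 2657 CPM in JNK7b livers, 1220, 1602 and 2610 CPM in JNK7a livers and 988, 1641 and 2437 CPM in control livers. All JNK7b libraries lay below all JNK7a libraries at 5 hours (8, 11, 17, 20 and 23), although the medians over the day were close. Against control, all JNK7b libraries of Ahcy lay below at hours 8 and 11 and above at hour 5. All JNK7a libraries of Ahcy lay below all control libraries at hour 2 and above them at hour 5. Ahcy fell by 0.20 ± 0.07 (SE; adjusted p = 0.0316) in JNK7b against JNK7a, 0.87 times the level. This call was lost without any 1 of the hours 8, 11, 17, 20 and 23, with adjusted p between 0.0737 and 0.182, and without filtering or on TPM. It was also lost without any 1 of 10 libraries of JNK7b or JNK7a, with the highest adjusted p, 0.0885, without JNK7b replicate 1 of hour 5. Against control, the log2 fold changes were -0.13 ± 0.07 in JNK7b (SE; adjusted p = 0.224) and 0.07 ± 0.07 in JNK7a (SE; adjusted p = 0.527).

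Bhmt and Bhmt2 encode betaine-homocysteine methyltransferases, which return a methyl group to make methionine, with betaine as the donor of the first and S-methylmethionine as the known donor of the second. The lowest, median and highest levels of Bhmt were 970, 2584 and 6025 CPM in JNK7b livers, 789, 2062 and 5503 CPM in JNK7a livers and 1388, 3264 and 4920 CPM in control livers. All JNK7a libraries lay below all control libraries at hours 2, 11 and 23. All JNK7b libraries of Bhmt lay below all control libraries at hour 11 and above them at hour 5, the same hours as for Bhmt2. They lay above all JNK7a libraries at hour 23. At hour 2, Bhmt averaged 4121 ± 2065 CPM in JNK7b (SD, n = 3), 1570 ± 668 CPM in JNK7a livers (n = 2) and 4807 ± 161 CPM in control livers (n = 2), the widest gap between JNK7a and control of any hour. Bhmt fell by 0.65 ± 0.16 (SE; adjusted p = 0.00179) in JNK7a against control, 0.64 times the control level, and rose by 0.53 ± 0.16 (SE; adjusted p = 0.0132) in JNK7b against JNK7a. The second of these lost its call without hour 2, at 0.40 with an adjusted p of 0.0781. Bhmt in JNK7b against control had a log2 fold change of -0.12 ± 0.16 (SE; adjusted p = 0.682), with a 95% interval from -0.44 to 0.19.

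Unlike Bhmt, Bhmt2 was called in no comparison of groups. Its lowest, median and highest levels were 140, 182 and 241 CPM in JNK7b livers, 136, 174 and 226 CPM in JNK7a livers and 142, 172 and 220 CPM in control livers. These ranges over the day overlapped almost fully. Hour by hour, all JNK7b libraries lay below all JNK7a libraries at hours 11 and 20. Against control, all JNK7b libraries lay below at hour 11 and above at hour 5. All JNK7a libraries lay below all control libraries at hour 2 and above them at hour 5. The log2 fold change of Bhmt2 was -0.02 ± 0.04 in JNK7b against control (SE; adjusted p = 0.812), 0.01 ± 0.04 in JNK7a against control (SE; adjusted p = 0.879) and -0.03 ± 0.04 in JNK7b against JNK7a (SE; adjusted p = 0.639), with the lowest bound of the 3 intervals at -0.113 and the highest at 0.0918. Its sign in JNK7a against control turned on TPM, where it was -0.06.

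Cbs encodes cystathionine beta-synthase, which commits homocysteine to transsulfuration, and Cth encodes cystathionine gamma-lyase, which then yields cysteine. The lowest, median and highest levels of Cbs were 226, 334 and 638 CPM in JNK7b livers, 249, 468 and 632 CPM in JNK7a livers and 215, 338 and 872 CPM in control livers. The groups of Cbs overlapped at 7 of 8 hours for JNK7b and JNK7a and at all 8 for JNK7b and control. Cbs fell by 0.15 ± 0.06 (SE; adjusted p = 0.0481) in JNK7b against JNK7a, and this call was lost with 44 of the 69 libraries when each was left out in turn. Its log2 fold change in JNK7a against control was 0.13 ± 0.06 (SE; adjusted p = 0.0949), and 0.21 with an adjusted p of 0.00151 without hour 8, where control livers averaged 746 ± 202 CPM (SD, n = 3). It was also called without control replicate 1 of hour 2 (adjusted p = 0.0406), without control replicate 2 of hour 14 (adjusted p = 0.0382) and without JNK7a replicate 1 of hour 2 (adjusted p = 0.0459). That of JNK7b against control was -0.02 ± 0.06 (SE; adjusted p = 0.859).

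For Cth the lowest, median and highest levels were 140, 232 and 380 CPM in JNK7b livers, 231, 288 and 454 CPM in JNK7a livers and 136, 280 and 661 CPM in control livers. All JNK7b libraries lay below all JNK7a libraries at 5 hours (8, 11, 14, 20 and 23), and the JNK7b mean was the lower at all 8. All JNK7b libraries of Cth lay below all control libraries at hours 8, 11, 14 and 23. At hour 5 all JNK7b and all JNK7a libraries lay above all control libraries. Cth fell by 0.35 ± 0.11 (SE; adjusted p = 0.0141) in JNK7b against JNK7a, 0.79 times the level, and missed the threshold without hour 23 (adjusted p = 0.0582). Against control the log2 fold change in JNK7b was -0.28 ± 0.11 (SE; adjusted p = 0.066), with lower means at 7 of 8 hours. The exception was hour 5, and without it the log2 fold change was -0.43 and called (adjusted p = 0.00315), as it was without any 1 of 8 libraries, with the lowest adjusted p, 0.0249, without JNK7b replicate 2 of hour 2. The log2 fold change of Cth in JNK7a against control was 0.07 ± 0.11 (SE; adjusted p = 0.734).

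Pemt encodes phosphatidylethanolamine N-methyltransferase, which spends S-adenosylmethionine to make phosphatidylcholine in the liver. Its lowest, median and highest levels were 172, 208 and 241 CPM in JNK7b livers, 161, 209 and 260 CPM in JNK7a livers and 178, 215 and 258 CPM in control livers. The log2 fold change was -0.03 ± 0.03 in JNK7b against control (SE; adjusted p = 0.625), -0.01 ± 0.03 in JNK7a against control (SE; adjusted p = 0.828) and -0.02 ± 0.04 in JNK7b against JNK7a (SE; adjusted p = 0.798). The lowest bound of the 3 intervals for Pemt was -0.101 and the highest 0.0554. Hour by hour, all JNK7b libraries of Pemt lay below all JNK7a libraries at hours 14 and 17 and above them at hour 5. All JNK7b libraries lay above all control libraries at hour 5. All JNK7a libraries lay below all control libraries at hour 20 and above them at hour 17.

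Nnmt encodes nicotinamide N-methyltransferase, which passes a methyl group from S-adenosylmethionine to nicotinamide. It showed the largest fold change of the 9 genes in both comparisons with JNK7b livers. The lowest, median and highest levels of Nnmt were 11.0, 25.5 and 81.2 CPM in JNK7b livers, 35.0, 64.3 and 116 CPM in JNK7a livers and 10.5, 63.2 and 162 CPM in control livers. The lowest JNK7a library thus lay above the JNK7b median, while the control range enclosed that of JNK7b, at its lower end through 1 library, replicate 2 of hour 5. Nnmt fell by 0.89 ± 0.18 (SE; adjusted p = 0.000314) in JNK7b against control, 0.54 times the control level, and by 1.02 ± 0.18 (SE; adjusted p = 3.01e-05) in JNK7b against JNK7a, 0.49 times the level. Nnmt in JNK7a against control had a log2 fold change of 0.13 ± 0.18 (SE; adjusted p = 0.691), with a 95% interval from -0.23 to 0.48. All JNK7b libraries lay below all control libraries at hours 8, 11 and 23 and above them at hour 5, and below all JNK7a libraries at hours 8, 11, 20 and 23.

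Hour 5 ran against the other hours, with low control libraries. The group and hour of each library are as labelled and were not checked by other means, so the values of hours 5 and 8 and the tests that rest on them hold only as far as those labels do. Gnmt averaged 1016 ± 357 CPM in JNK7b (SD, n = 2), 1057 ± 175 CPM in JNK7a livers (n = 3) and 583 ± 184 CPM in control livers (n = 3), and Nnmt averaged 62.4 ± 26.6 CPM in JNK7b, 58.2 ± 24.5 CPM in JNK7a and 20.4 ± 9.41 CPM in control livers. At hour 8 the order of Gnmt was the reverse for JNK7b, with 598 ± 160 CPM in JNK7b, 922 ± 110 CPM in JNK7a and 1260 ± 400 CPM in control livers (SD, n = 3 each). Nnmt at hour 8 averaged 20.4 ± 7.86 CPM in JNK7b, 57.4 ± 13.7 CPM in JNK7a and 107 ± 53.7 CPM in control livers. Whether the difference between groups changed over the 8 hours was tested directly. It was called in JNK7b against control for Gnmt (adjusted p = 0.0206) and Nnmt (adjusted p = 0.0214), where 1.72% of all genes were called. It was called for none of the 9 in JNK7b against JNK7a, where 2.19% of all genes were called, or in JNK7a against control, where 0.00695% were, by edgeR or by limma with voom. At an unadjusted p below 0.05, edgeR gave 3 of the 9 in JNK7b against JNK7a and 4 in JNK7a against control, and voom 5 in each. Both calls in JNK7b against control were lost without control replicate 3 of hour 8 and JNK7b replicate 2 of hour 5 together, at adjusted p = 0.381 for Gnmt and 0.27 for Nnmt. They were also lost when 1 library was left out, for 3 of the 69 libraries, all of hour 5. The adjusted p of Gnmt was 0.285 without JNK7b replicate 2, 0.096 without control replicate 1 and 0.0971 without control replicate 2, and that of Nnmt was 0.164, 0.0614 and 0.092 without each of these libraries in turn. Control replicate 3 of hour 8 and JNK7b replicate 2 of hour 5 held the highest Gnmt, Cth and Nnmt of their groups, at 1660, 661 and 162 CPM in the control library and 1268, 380 and 81.2 CPM in the JNK7b library. Without them the mean differences of JNK7b against control were -0.51 for Gnmt (adjusted p = 5.31e-05) and -0.90 for Nnmt (adjusted p = 0.000715).

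**Figure D3:**
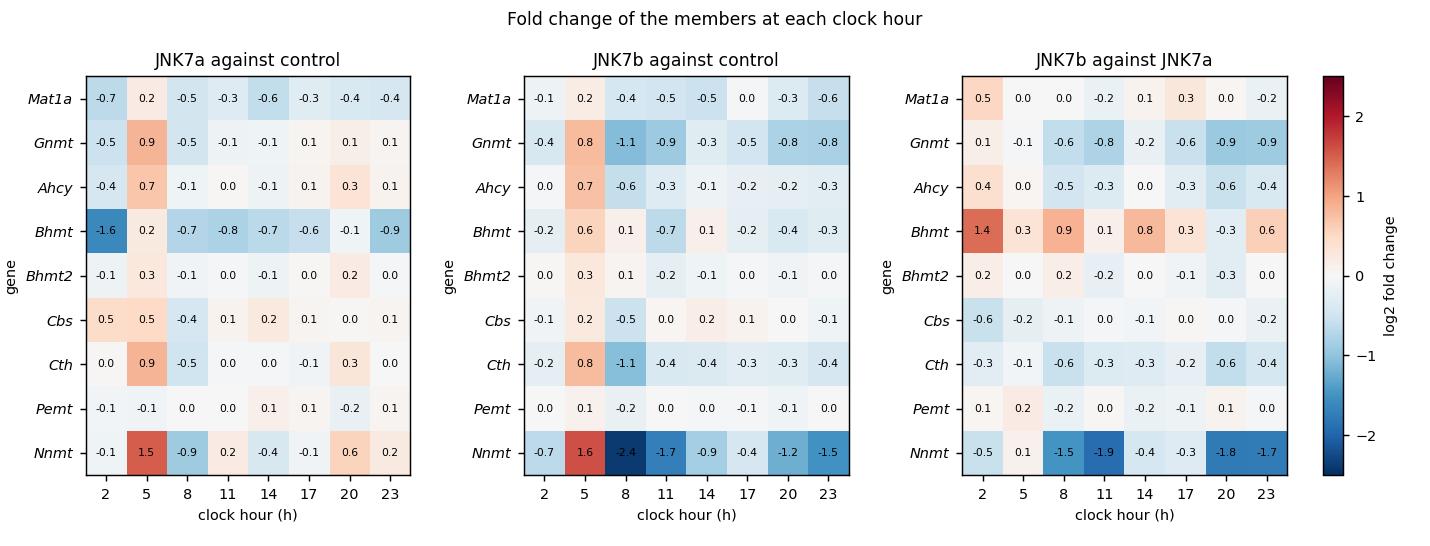
Log2 fold change at each clock hour (columns) for each gene (rows), in JNK7a against control, JNK7b against control and JNK7b against JNK7a. Blue is lower and red higher in the group named first, and the number in each cell is the value to 1 decimal. The column of hour 5 is red for most genes in both comparisons with control, and Nnmt in JNK7b against control ran from -2.39 at hour 8 to 1.61 at hour 5.

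Markers of cell types were measured beside these results, and their part in the results was not tested. Hepatocyte markers had a summed level of 61490 to 102700 CPM (median 81430) in JNK7b livers, 78260 to 153200 CPM (median 101900) in JNK7a livers and 79020 to 106200 CPM (median 95890) in control livers. Of the 6, 3 fell in JNK7b against control (Alb by 0.21, Apoa1 by 0.37 and Ttr by 0.28 on the log2 scale), all 6 fell in JNK7b against JNK7a, and 4 rose in JNK7a against control, or 2 with limma on log2(TPM + 1). Against control the called falls of these markers were smaller than those of Gnmt and Nnmt in JNK7b livers. Mat1a fell by 0.29 there, less than Apoa1 and about as far as Ttr. In JNK7b against JNK7a Apoa1 fell by 0.62 and Serpina1c by 0.53, more than Gnmt (by 0.49) and less than Nnmt (by 1.02). Cth (by 0.35), Ahcy (by 0.20) and Cbs (by 0.15) fell less than Apoa1 and Serpina1c in that comparison. Of 9 pericentral markers, 2 rose and 3 fell in JNK7b against control, with Rhbg higher by 1.06 and Cyp2e1 lower at -0.50, and 3 rose and 3 fell in JNK7a against control, with Cyp1a2 higher by 1.14. In JNK7b against JNK7a 2 rose and 3 fell, with Glul higher by 0.59, Cyp1a2 lower at -1.01 and Cyp2e1 lower at -0.51. Their summed level was 4889 to 11590 CPM in JNK7b, 4241 to 14410 CPM in JNK7a and 6354 to 12380 CPM in control livers. Of 9 periportal markers, 1 rose and 1 fell in each comparison with control, and 1 rose (Hsd17b13, by 0.42) and 2 fell (Hal by 0.36 and Arg1 by 0.17, the second not called on log2(TPM + 1)) in JNK7b against JNK7a, with sums of 4129 to 7853 CPM in JNK7b, 3844 to 8940 CPM in JNK7a and 4000 to 11120 CPM in control livers.

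Of 7 markers of T and natural killer cells, 2 rose and 1 fell in JNK7b against control and 6 rose in JNK7a against control, while in JNK7b against JNK7a 1, Cd4, fell by 1.86, with sums of 1.05 to 7.77 CPM in JNK7b, 3.32 to 9.62 CPM in JNK7a and 0.992 to 6.54 CPM in control livers. Of 5 B and plasma cell markers, 2 rose in each comparison with control and none was called in JNK7b against JNK7a by edgeR or limma on log2(TPM + 1), with 1 at an unadjusted p below 0.05 in edgeR, and with sums of 6.01 to 181 CPM in JNK7b, 20.5 to 301 CPM in JNK7a and 3.39 to 174 CPM in control livers. Adipocyte markers summed to 12.1 to 113 CPM in JNK7b, 3.84 to 17.6 CPM in JNK7a and 14.5 to 128 CPM in control livers. Over all groups together, the defining adipocyte genes Adipoq, Plin1, Lep and Retn were at 0 in most libraries. The genes behind these sums were Cfd, Fabp4 and Cidec. Against control all 3 fell in JNK7a livers, and in JNK7b livers 1 of them, Cfd, fell. All 3 rose in JNK7b against JNK7a, Cidec by 4.07, Cfd by 1.53 and Fabp4 by 0.53. Stellate cell, macrophage, endothelial, cholangiocyte and neutrophil markers held at most 2 called genes per comparison.

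Rhythm over the day was tested within each group with a 24 h cosine curve, fitted as a cosine and a sine term. In JNK7b livers 5 of the 9 genes were called rhythmic, where 17% of all genes were, in JNK7a livers 5, where 26.2% were, and in control livers 5, where 23.6% were. Mat1a, Bhmt2, Ahcy and Cbs were called in all 3 groups, Pemt in JNK7a and control livers and Bhmt in JNK7b livers. The difference of rhythm between groups was called for none of the 9 genes in any comparison, where at most 0.00695% of all genes were called. The smallest unadjusted p among the 9 was 0.109, for Bhmt2 in JNK7b against control.

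Cbs had the smallest rhythm p of the 9 genes in each group. Its amplitude, the distance from the daily mean to the peak on the log2 scale, was 0.61 in JNK7b (adjusted p = 1.38e-10), 0.57 in JNK7a (adjusted p = 1.37e-08) and 0.65 in control livers (adjusted p = 1.34e-12). The fitted peak lay at clock hour 10.3 in JNK7b, 9.37 in JNK7a and 9.89 in control livers, and the peak was 2.32 times the trough in JNK7b, 2.20 times in JNK7a and 2.45 times in control livers. Cbs at hour 11 averaged 586 ± 10.6 CPM in JNK7b (SD, n = 2), 600 ± 29.1 CPM in JNK7a livers (n = 3) and 567 ± 38.9 CPM in control livers (n = 3), and at hour 20 it averaged 254 ± 22.9 CPM in JNK7b (n = 4), 262 ± 18.7 CPM in JNK7a livers (n = 2) and 255 ± 34.3 CPM in control livers (n = 4). The 3 groups thus ran together through the fall of Cbs from late morning to evening.

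Ahcy, Mat1a and Bhmt2 peaked at night instead. The fitted peak of Ahcy was at clock hour 23.2 in JNK7b (amplitude 0.38, adjusted p = 0.00159), 22.1 in JNK7a (amplitude 0.37, adjusted p = 0.000917) and 21.2 in control livers (amplitude 0.32, adjusted p = 0.00263). Mat1a peaked at hour 21.9 in JNK7b (amplitude 0.30, adjusted p = 0.00676), 22.2 in JNK7a (amplitude 0.27, adjusted p = 0.0208, and 0.054 without JNK7a replicate 1 of hour 20) and 20.7 in control livers (amplitude 0.31, adjusted p = 0.00162). Bhmt2 peaked at hour 0.146 in JNK7b (amplitude 0.20, adjusted p = 0.00187), 22.2 in JNK7a (amplitude 0.20, adjusted p = 0.000749) and 21.4 in control livers (amplitude 0.16, adjusted p = 0.00551). The adenosyltransferase, the hydrolase and Bhmt2 were therefore high at hours when Cbs was low, in each of the 3 groups.

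Pemt peaked in the afternoon, at hour 15.9 in JNK7a (amplitude 0.18, adjusted p = 0.00133) and 16.5 in control livers (amplitude 0.13, adjusted p = 0.0334), and in JNK7b livers it was not called (amplitude 0.08, adjusted p = 0.282). On log2(TPM + 1) neither rhythm of Pemt was called (adjusted p = 0.146 in JNK7a and 0.241 in control livers), and that in control livers was lost without any 1 of 9 control libraries (adjusted p up to 0.0932, without replicate 2 of hour 5). Bhmt was called in JNK7b with an amplitude of 0.61 and a peak at hour 4.70 (adjusted p = 0.0201), but not in JNK7a, at 0.37 and hour 3.88 (adjusted p = 0.156), or control livers, at 0.40 and hour 3.29 (adjusted p = 0.2). The call of Bhmt in JNK7b was lost without the 2 libraries named above (adjusted p = 0.056), and without JNK7b replicate 2 of hour 2 (adjusted p = 0.0548), replicate 2 of hour 5 (0.0508) or replicate 1 of hour 17 (0.0541). Gnmt, Cth and Nnmt were called in no group, with adjusted p from 0.132 to 0.945.

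**Figure D4:**
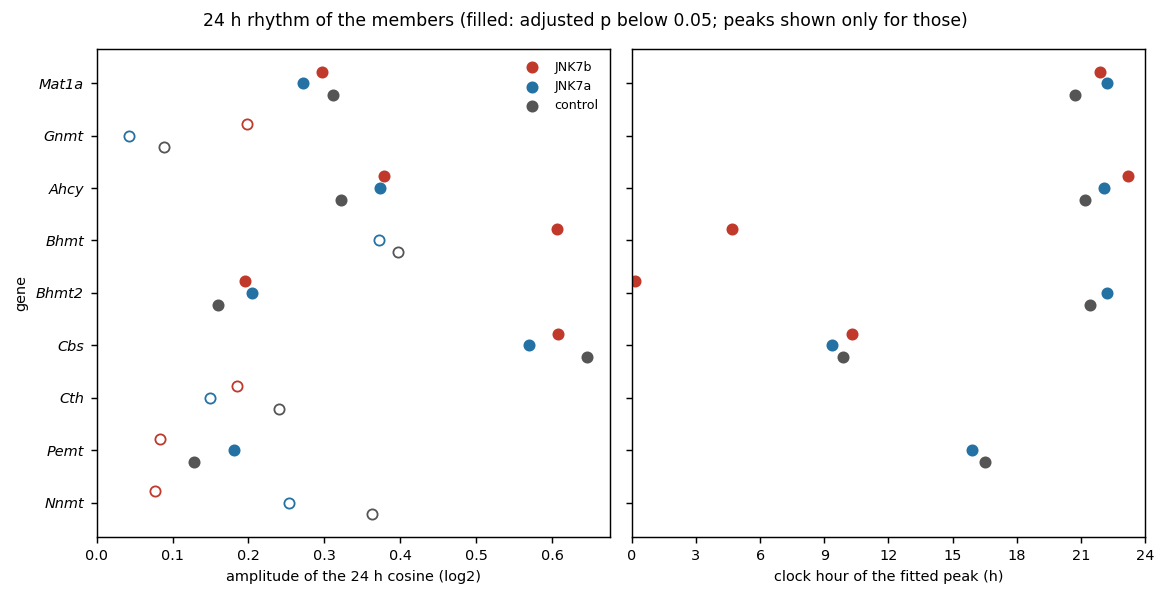
The left panel plots the amplitude of the 24 h cosine on the log2 scale and the right panel the clock hour of the fitted peak, for JNK7b (red), JNK7a (blue) and control (grey). Filled points have an adjusted p below 0.05, and peaks are drawn only for those. Cbs peaks between hours 9.37 and 10.3 in the 3 groups, and Mat1a and Ahcy peak between 20.7 and 23.2.

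Across the 24 means of group and clock hour, the profiles of the genes were compared by Pearson's r. These means share their libraries and depth and include the 2 libraries that stood apart, and no clustering was run. Gnmt and Nnmt had r = 0.87, Gnmt and Cth 0.82 and Cth and Nnmt 0.76. Bhmt2 and Ahcy had 0.86, Mat1a and Ahcy 0.71 and Mat1a and Bhmt2 0.64. Ahcy also had 0.58 with Nnmt and 0.54 with Gnmt, and Cbs had 0.56 with Cth. Cbs ran against Bhmt2, Mat1a and Ahcy, with r = -0.76, -0.69 and -0.67. Bhmt and Bhmt2, neighbours in the genome, had 0.34. Among 11321 genes with a mean of at least 1 CPM, leaving out predicted genes, RIKEN clones and pseudogenes by their symbols, Hpd and Amy1 were the 2 most like Gnmt (0.87 and 0.87) and the 2 most like Nnmt (0.92 and 0.91). Hpd encodes 4-hydroxyphenylpyruvate dioxygenase of tyrosine breakdown, and Amy1 an amylase. The urea cycle gene Asl was the most like Ahcy (0.96) and the glyoxylate gene Agxt the most like Cbs (0.92). The gene most like Mat1a was Lpgat1 (0.90), most like Bhmt Tln2 (0.88), most like Bhmt2 Itch (0.91), most like Cth Sdc2 (0.85) and most like Pemt Exosc5 (0.88). Over the 69 single libraries r with each of these most alike genes was lower, from 0.55 (Bhmt and Tln2) to 0.93 (Ahcy and Asl).

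Other genes of the pathway were described from 8 lists of 94 genes, of which 92 passed the filter, and their changes are given as log2 fold changes throughout. Of the 92, 8 rose and 17 fell in JNK7b against control, 7 rose and 23 fell in JNK7a against control, and 14 rose and 16 fell in JNK7b against JNK7a. Over all genes tested the shares called higher and lower were 6.59% and 6.85% in JNK7b against control, 9.66% and 11.1% in JNK7a against control and 10.9% and 11.4% in JNK7b against JNK7a, and the count of each list is to be read against these. With limma on log2(TPM + 1) the counts were 5 and 17 in JNK7b against control, 1 and 34 in JNK7a against control, and 23 and 9 in JNK7b against JNK7a, and no called gene changed sign. Their median log2 fold change was -0.05 in JNK7b against control, -0.04 in JNK7a against control and 0.01 in JNK7b against JNK7a.

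Of 6 further genes of the methionine cycle none was called against control, and Mtrr, which keeps methionine synthase active, fell by 0.35 ± 0.09 in JNK7b against JNK7a (SE; adjusted p = 0.00254). The extrahepatic adenosyltransferase genes Mat2a and Mat2b and the folate-dependent methionine synthase Mtr were among those not called in any comparison. Of 20 folate cycle genes, 1 rose and 4 fell in each comparison with control. In JNK7b livers Ggh, which trims folate polyglutamates, rose by 0.35, while those that fell included the folate transporter Slc46a1 (by 0.27), Shmt2 (by 0.20) and Shmt1 (by 0.15). In JNK7a livers Mthfd1l, which makes formate in mitochondria, fell by 0.99 ± 0.21 (SE; adjusted p = 0.000295) and Slc25a32 by 0.20, and Mthfd2 rose by 0.50, a call lost on log2(TPM + 1). Shmt1 and Mthfd2 were named after their values were seen. Between JNK7b and JNK7a livers 5 folate genes were higher and 4 lower in JNK7b, among them Slc46a1 at -0.36, Ggh at 0.41 and Mthfd1l at 0.91. Among the lower, Mthfd1, Shmt2 and Aldh1l1 lost their calls with limma on log2(TPM + 1) (adjusted p = 0.213, 0.062 and 0.111). Each was named here after its values were seen.

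Of 11 genes that make or use choline, betaine and sarcosine, 2 fell in JNK7b against control, Pipox by 0.19 and Sardh by 0.22, both of which oxidize sarcosine, the product of Gnmt, and none rose. Against control 4 fell in JNK7a livers, among them Chdh (by 0.14), which starts the oxidation of choline to betaine, and Pcyt1a (by 0.29), the regulated step of phosphatidylcholine synthesis, with Chkb (by 0.23) and Slc44a1 (by 0.19), and Pipox rose by 0.14, named after its value was seen, but was at 0.07 and not called on log2(TPM + 1) (adjusted p = 0.232). Set against JNK7a, 2 rose and 2 fell in JNK7b livers, with Pcyt1a at 0.21 and Chkb at 0.28, Pipox at -0.32 and Aldh7a1 at -0.19. The 10 genes of glycine and serine included the glycine cleavage system, whose 4 genes Gldc, Amt, Gcsh and Dld fell together in JNK7a against control, by 0.23, 0.18, 0.11 and 0.12. Only Psph of this list was called in JNK7b against control, with a rise of 0.30, and in JNK7b against JNK7a Amt rose by 0.27 and Psph by 0.31, and Agxt fell by 0.29, a call lost on log2(TPM + 1) (adjusted p = 0.0864).

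Downstream of Cth, 11 of 12 genes of cysteine and sulfide use were measured. Against control 5 fell in JNK7b livers (Sqor by 0.17, Suox by 0.16, Cdo1 by 0.15, and Mpst and Tst, both by 0.14, the last pair named after their values were seen, and Mpst with an adjusted p of 0.078 without the 2 libraries that stood apart), and Csad, which leads to taurine, rose by 0.64 ± 0.16 (SE; adjusted p = 0.00293). In JNK7a livers 3 fell against control, Suox by 0.29, Mpst by 0.17 and Ethe1 by 0.15, and none rose. Csad rose by 0.85 in JNK7b against JNK7a, and Cdo1 fell by 0.25, Tst by 0.18 and Gclm by 0.14, the last of which was at -0.08 and not called on log2(TPM + 1) (adjusted p = 0.268). Of 13 other methyltransferases, 3 rose and 4 fell in JNK7b against control, led by Inmt at -0.39, Tpmt at -0.37, Hnmt at -0.28 and Gamt, the methyltransferase of creatine synthesis, at -0.24. In JNK7a livers 1 rose and 4 fell against control, with Hnmt, which methylates histamine, at -0.66 ± 0.07 (SE; adjusted p = 1.82e-10). Set against JNK7a, 2 rose and 2 fell in JNK7b, with As3mt at 0.46, Hnmt at 0.38 and Inmt at -0.25. None of the 13 fell as far as Nnmt in JNK7b against control.

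Of 13 measured genes of methionine salvage and polyamines, 1 rose (Mtap, by 0.18) and 1 fell (Odc1, by 0.13, with an adjusted p of 0.0873 without the 2 libraries that stood apart) in JNK7b against control. In JNK7a against control 3 rose and 3 fell, with Sat1 and Amd1 both higher by 0.24, calls that both missed the threshold with limma on log2(TPM + 1). In JNK7b against JNK7a 2 rose and 3 fell, with Mtap at 0.25, Amd1 at -0.34, Srm at -0.33 and Sat1 at -0.25, the last not called on log2(TPM + 1) (adjusted p = 0.0524). Of 8 genes that make or use nicotinamide beside Nnmt, Aox3, which oxidizes N-methylnicotinamide, the product of Nnmt, rose by 0.36 in JNK7b and by 0.28 in JNK7a against control (not called in JNK7a on log2(TPM + 1)), and Nmnat3 fell by 0.35 and by 0.33. None of the 8 was called in JNK7b against JNK7a, where Nnmt fell by 1.02.

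**Figure D5:**
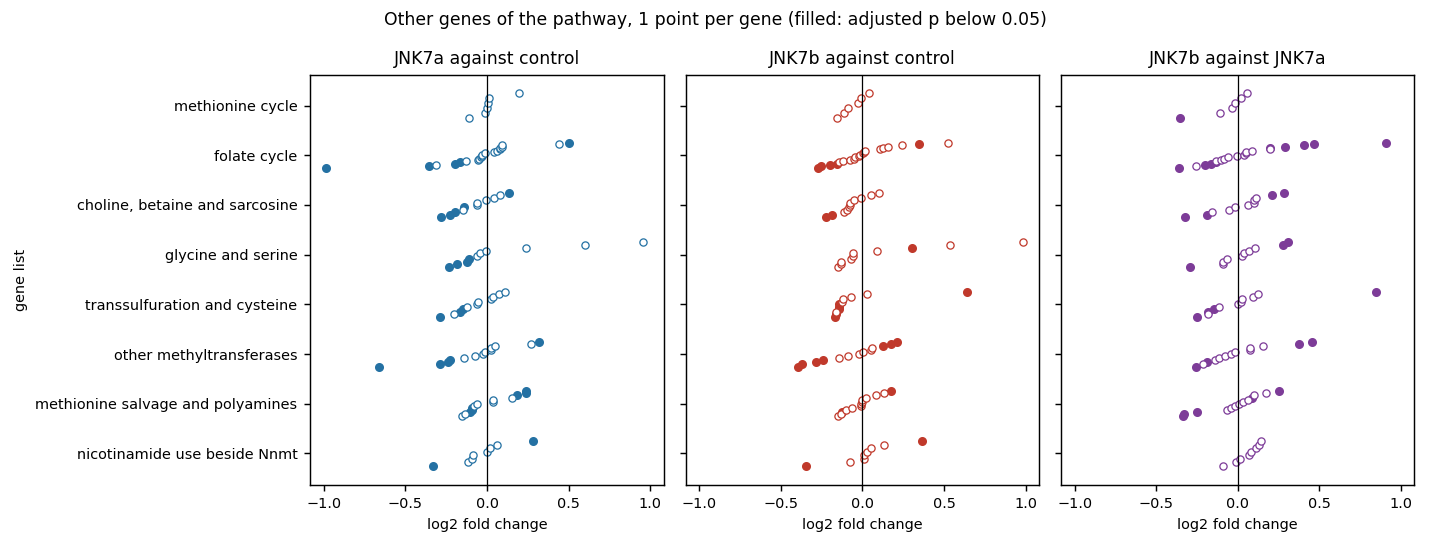
Log2 fold change (horizontal axis) of the 92 other genes of the pathway measured, 1 point per gene in 8 lists, for JNK7a against control, JNK7b against control and JNK7b against JNK7a. Filled points have an adjusted p below 0.05. Among the called genes, Mthfd1l lies farthest to the left in JNK7a against control, at -0.99, and Csad farthest to the right in JNK7b against control, at 0.64.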

How the data were processed

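Liver RNA of 69 samples was measured as gene levels. Per the labels' protocols, RNA was treated with DNase, libraries were made from its polyadenylated fraction and read as pairs of 150 bases. Cutadapt and Salmon, with the build mm10, are named per the submitters' processing notes, with versions, annotation and strand setting not given in the sources used here. The authors deposited estimated counts per gene, scaled by length, which were rounded here to whole numbers before testing, and the authors deposited TPM, used here for levels between genes and for alternatives. Lines that shared a symbol (234 of 55487) were summed. Mitochondrial genes held 10.5% to 16.0% of TPM.

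Groups, hours and replicate numbers came from the labels. No pair of libraries of 1 group and hour agreed within sampling noise (chi-square per degree of freedom 21.8 to 263 over 69 pairs). Genes were filtered with filterByExpr, which left 14398, and scaled by TMM in edgeR 4.0.16 (R 4.3.3). The robust quasi-likelihood fit had 1 coefficient for each of 24 cells of group and hour (45 residual degrees of freedom), and contrasts averaged the 8 hours equally. The change of a difference over the hours was a joint test of the same fit. Rhythm was a cosine and sine of 24 h per group (60 residual degrees of freedom). P-values were adjusted by Benjamini-Hochberg over all tested genes, and called means below 0.05. A standard error is the size of a log2 fold change divided by the root of its F value. CPM uses TMM-scaled totals, and log2 CPM, used for amplitudes and likeness, a prior count of 2. The common biological coefficient of variation was 0.248. The steps were tested on simulated data.

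All 9 genes are described whatever their values. From each list of other pathway genes up to 4 called genes per comparison with the smallest p are named, apart from some that are counted but not reported here by name. The genes, lists, tests and most alternatives were chosen with earlier results of these data known. Results were recomputed with DESeq2 1.42.0, with limma 3.58.1 (voom, log2(TPM + 1) or log2(TPM + 0.1)), with size factors by median ratio, unfiltered or filtered at a mean of 1 CPM, in an additive design, with a replicate block, for each pair of groups alone, and without single hours or libraries. Leaving out libraries in the test of change over the hours, and other scalings of the other pathway genes, were chosen after seeing the data.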

Additional observations from a re-analysis of the deposited data

Results flagged for a closer look

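Of the 27 sets of 4 libraries of 1 gene, group and hour, 2 had a library far from the other 3, where chance gives about 1 in 20. Both were JNK7b replicate 3 of hour 23. Its Bhmt level was 4648 CPM, against 2312 to 2492 CPM in the other 3 JNK7b libraries of that hour, a gap of 0.923 of the whole range. Its Bhmt2 level was 241 CPM, against 183 to 188 CPM in the same other 3 libraries, a gap of 0.919 of the range. Leaving out this library ended no call of Bhmt or Bhmt2 in the group comparisons.

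For 2 genes the difference of JNK7b from control was not the same at all hours by the joint test of that difference over the 8 hours. The adjusted p was 0.0206 for Gnmt and 0.0214 for Nnmt, with log2 fold changes for Nnmt from -2.39 at hour 8 to 1.61 at hour 5. Neither call held without JNK7b replicate 2 of hour 5, nor without control replicate 1 or replicate 2 of hour 5.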

How the results depend on the processing

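The falls of Gnmt and Nnmt in JNK7b against control and against JNK7a, of Mat1a in JNK7b and JNK7a against control and of Bhmt in JNK7a against control held under every alternative run. Of the other results, the cause of each change given here was not tested. The count of the 9 genes that rose in JNK7a against control was 1, not 0, with voom and without hour 8, and 0 to 1 when each library was left out. The count that rose in JNK7b against JNK7a was 0, not 1, without hour 2. The count that fell there, 5, was 3 unfiltered, on log2(TPM + 1), on log2(TPM + 0.1) and without hour 11, 17 or 20, 2 without hour 23, and 3 to 5 when each library was left out. The count that fell in JNK7b against control was 5, not 3, without hour 5, with Ahcy and Cth added. The count whose difference between JNK7b and control changed over the hours was 0, not 2, without the 2 libraries that stood apart, and 0 to 3 when each library was left out. Cth in JNK7b against control, not called here, was called by voom (adjusted p = 0.0488) and DESeq2 (adjusted p = 0.042), and the difference of Ahcy changed over the hours in JNK7b against control by voom (adjusted p = 0.0273).

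Each single-gene result was set beside its value under each alternative other than leaving out 1 library. In these pairs 29 lost a call, 10 gained one and 27 changed sign. The other 879 stayed on the same side of the threshold, called or not, and kept their sign where a fold change was tested. Sign changes of the 9 genes occurred only in fold changes that were not called. In JNK7a against control Gnmt was at 0.0074 with voom, 0.022 without the 2 libraries, 0.066 without hour 2, 0.055 without hour 8, 0.0031 without hour 11 and 0.0057 without hour 14, and from -0.069 to 0.038 when each library was left out. Bhmt2 was at -0.058 on log2(TPM + 1), -0.059 on log2(TPM + 0.1), -0.025 without hour 5 and -0.014 without hour 20. Without hour 5 Ahcy was at -0.020, Cth at -0.050 and Nnmt at -0.076. Pemt was at 0.011 without hour 20, and from -0.038 to 0.013 when each library was left out. In JNK7b against JNK7a Bhmt2 was at 0.031 on both TPM scales and 0.0048 without hour 20, and Pemt at 0.0026 with voom, 0.051 on both TPM scales, 0.0067 without hour 8, 0.0037 without hour 14 and 0.0020 without hour 17, and from -0.026 to 0.00078 when each library was left out. In JNK7b against control Bhmt2 was at 0.013 without hour 11, and Cbs at 0.053 without hour 8 and from -0.048 to 0.0084 when each library was left out.

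Same-numbered libraries of 2 groups at 1 hour did not deviate together (r from -0.214 to 0.113 over all pairs), so the numbers were not taken to pair them. A replicate block called 1495 genes in JNK7b against control, 2785 in JNK7a against control and 2674 in JNK7b against JNK7a, against 1935, 2984 and 3207 without it. With the replicate block the call of Cbs in JNK7b against JNK7a was lost (adjusted p = 0.122), Gnmt in JNK7a against control was at 0.033 and Cbs in JNK7b against control at 0.0041. Over all genes, JNK7b against control called 1220 without hour 11, 1253 without hour 20 and 1149 without hour 23, and voom called 528 genes that changed over the hours in JNK7b against control, not 248, and 193 in JNK7b against JNK7a, not 315. With 2 to 4 libraries per group and hour, single hours are weakly measured.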
